A study of Sycon ciliatum with 26 samples.

Results

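The 34 gene IDs described here peaked on day 2 of regeneration in the calcareous sponge Sycon ciliatum, out of 35307 gene IDs counted in the series. They were chosen by their CPM (counts scaled to a common library total): a mean of at least 10 CPM on day 2 that was more than 2 times the mean of each of the 6 other time windows. The rule used all 25 libraries of regenerating structures, so the day 2 peak itself is a description, and no test of it is read as support. Of the 35307 IDs, 8734 reached 10 CPM on day 2, and these serve as the background for the shares below.

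Libraries came from structures that re-form after a whole animal is dissociated into cells, sampled 1 day after dissociation (2 libraries), on day 2 (2 libraries), on days 3 to 4 (6), 6 to 8 (6), 10 to 14 (4), 16 to 18 (3) and 21 to 24 (2). The labels call the last windows PJUV and JUV. The series also has 1 library of freshly dissociated cells of a whole animal, here the adult library, which the rule did not use. The labels give no strain, treatment or genotype, all regenerating groups share the dissociation, and whether libraries of one window came from separate animals or from pooled structures is not given, so p-values measure the spread between these libraries, which may be technical.

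Sponges can rebuild a body from dissociated cells. Loose cells adhere to one another and round up into aggregates, an outer epithelium-like layer forms around them, and flagellated choanocyte chambers, which pump water, and in calcareous sponges spicules of calcium carbonate, develop afterwards. The IDs in the count tables are merged gene models with the prefix MSTRG and carry no gene name, and 0 of the 35307 matched the 26717 genes of the RefSeq table for the assembly ocSycCili1.1. What the members encode is therefore not described, no pathway list could be applied, and members are ordered by level and time course. In RNA of whole structures, fewer cells of a type and less RNA per cell cannot be told apart.

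Library totals lay between 7425481 and 15395912 counts, apart from replicate 1 of day 1 with 26087749. The day 2 libraries held 11282902 counts (replicate 1) and 7425481 counts (replicate 2), and the adult library 11398214. All 34 members passed the filter on low counts, which each could do through its day 2 level alone. The lowest count of any member on day 2 was 166 in replicate 1 and 14 in replicate 2.

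Day 2 means of the members ran from 11.1 to 2643 CPM with a median of 27.0, close to the median of 28.8 CPM over the 8734 background IDs. Levels under 50 CPM were found for 25 members and levels of at least 100 CPM for 7. On either side of the peak the members stood much lower. The median member was at 19.7% of its day 2 mean on day 1, at 11.2% on days 3 to 4, at 7.95% on days 6 to 8 and at 5.71% on days 10 to 14. It was at 2.51% on days 16 to 18 and 3.47% on days 21 to 24. The rule set a ceiling of 50% for each of these windows and no order among them. Members spread widely below that ceiling, from 0.386% to 49.7% on day 1 and from 0.215% to 47.1% on days 3 to 4.

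**Figure D1:**
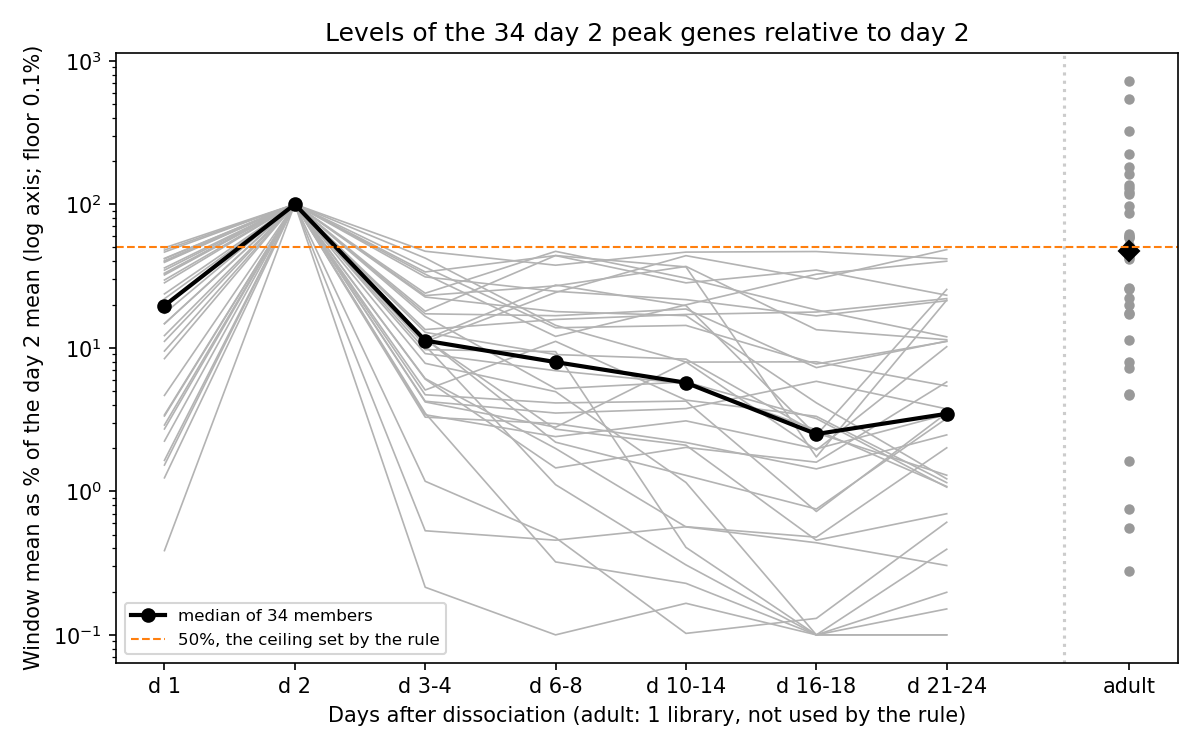
Window mean of each of the 34 members as a percentage of its day 2 mean (y, log axis with a floor at 0.1%) over the 7 windows and the adult library (x); grey lines and points are members, black symbols their median, and the dashed line the 50% ceiling set by the rule. The median falls from 100% on day 2 to 11.2% on days 3 to 4 and 2.51% on days 16 to 18, and lies at 47.3% in the adult library, where members spread from 0.279% to 726%.

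The window with the second highest mean was day 1 for 19 members, days 3 to 4 for 5, days 6 to 8 for 4, days 21 to 24 for 4 and days 16 to 18 for 2, while none had it on days 10 to 14. Day 1 was therefore the highest window outside day 2 for 55.9% of members, against 35.3% of background IDs. Days 10 to 14 were so for 8.62% of background IDs. Levels under 10% of the day 2 mean were found for 12 members on day 1, 15 on days 3 to 4 and 19 on days 6 to 8. They were found for 21 on days 10 to 14, 26 on days 16 to 18 and 21 on days 21 to 24. Among the 8734 background IDs the numbers were 27, 68, 222, 384, 484 and 490 in that order. The rule held members, but not background IDs, low in these windows. Nothing is therefore read from these differences, including the share with day 1 as the next highest window. At the edge of the rule, the member with the smallest excess had a day 2 mean of 15.1 CPM, 2.01 times its next window. The nearest ID left out had 97.1 CPM, 1.99 times its next window. The member with the lowest day 2 mean stood at 11.1 CPM, and the nearest ID left out by the minimum at 9.94 CPM.

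MSTRG.10703 led the members by day 2 mean over the largest other window mean plus 1 CPM. Its plain ratio to the next window was 28.5, below that of some members of lower level such as MSTRG.5003 at 44.7. It had 192 and 66.4 CPM in replicates 1 and 2 of day 2, after 2.91 and 1.02 CPM on day 1. On days 3 to 4 its lowest, median and highest libraries held 0.160, 4.23 and 11.3 CPM. From days 6 to 8 on, no library exceeded 1.94 CPM, and 6 of the 15 later libraries held no read of it. Its mean went from 129 ± 88.5 CPM (SD, n = 2) on day 2 to 4.52 ± 3.93 CPM (SD, n = 6) on days 3 to 4 and 0.416 ± 0.755 CPM (SD, n = 6) on days 6 to 8. The adult library held 9.39 CPM.

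MSTRG.5101 was the second by that measure and showed a single-window pulse on a flat base. Its day 2 libraries held 48.7 and 10.4 CPM, against 0.767 and 0.203 CPM on day 1. Libraries of days 3 to 4 ranged from 0.415 to 3.36 CPM around a median of 0.845, and those of days 6 to 8 from 0.36 to 2.05 CPM around 0.963. Those of days 10 to 14 were 0.505, 1.08, 1.74 and 1.12 CPM, those of days 16 to 18 were 1.13, 1.18 and 2.87 CPM, and those of days 21 to 24 were 0.916 and 1.30 CPM. Every library after day 2 lay below 3.5 CPM, and the lower day 2 library stood clear of all of them. The adult library, at 25.5 CPM (exact Poisson 95% interval 22.7 to 28.6, counting error only), was within the span of the day 2 libraries.

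MSTRG.31295 and MSTRG.33253 had the highest day 2 means among the members whose day 2 libraries both lay above every other regenerating library. MSTRG.31295 had closely matching day 2 libraries, 700 and 682 CPM. It stood at 275 and 366 CPM on day 1. Days 3 to 4 gave 154, 250 and 512 CPM as lowest, median and highest library, and days 6 to 8 gave 31.6, 69.8 and 267 CPM. The decline went on through days 10 to 14 (39.7, 109, 44.6 and 26.3 CPM) to 6.52, 14.6 and 19.1 CPM on days 16 to 18. The libraries of days 21 to 24, at 89.9 and 50.7 CPM, lay above all of days 16 to 18. This was a broad early wave, 2.15 times its next window on day 2, not a pulse.

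MSTRG.33253 also had matching day 2 libraries, at 164 and 155 CPM, but switched between high and near-zero levels among later libraries of the same window. On day 1 it held 2.45 and 12.4 CPM. On days 3 to 4 replicate 4 held 101 CPM, and the 5 other libraries between 0 and 5.65 CPM. On days 6 to 8 replicates 1, 3 and 6 held 119, 76.1 and 61.6 CPM while replicates 2, 4 and 5 held 0.720, 4.23 and 0 CPM. Replicate 3 of days 10 to 14 held 112 CPM, and the others 4.79, 0.436 and 7.92 CPM. Days 16 to 18 gave 5.56, 6.13 and 0.0843 CPM, and days 21 to 24 gave 38.1 and 43.3 CPM. Its day 2 libraries were the highest of all 25, yet single libraries of 3 later windows reached more than 100 CPM. The means of days 3 to 4, 6 to 8 and 10 to 14 therefore average over a split in this member.

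**Figure D2:**
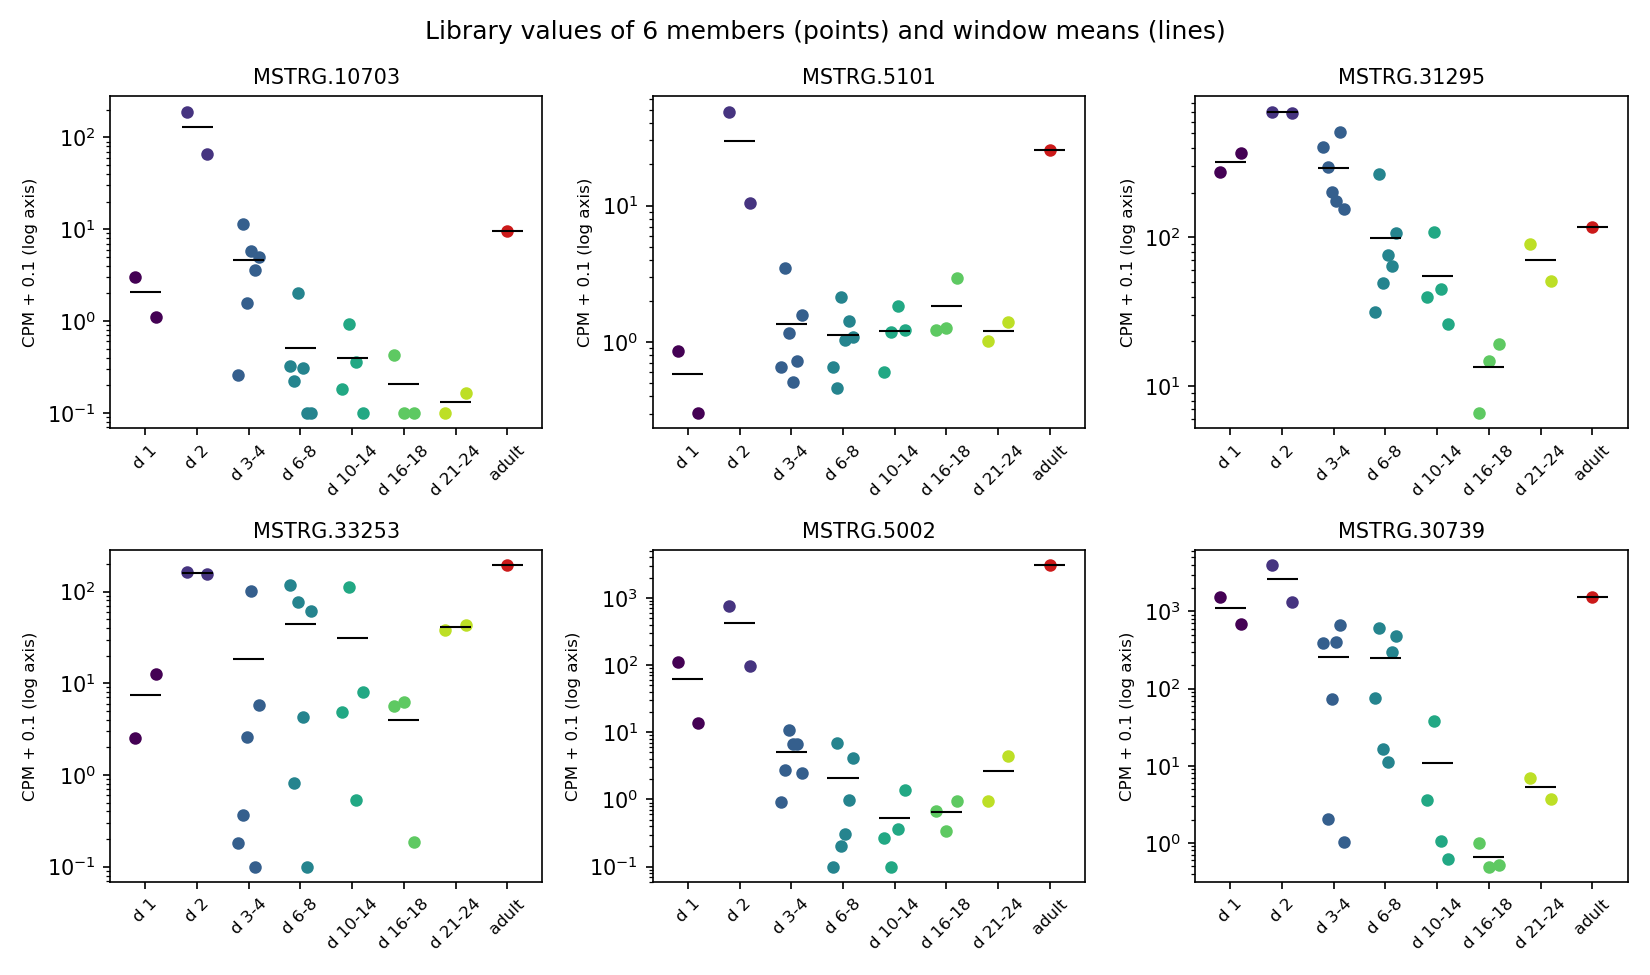
CPM + 0.1 (y, log axis) in every library (points) by window (x) for 6 members, with the window mean as a line and the adult library in red. MSTRG.5101 is flat below 3.5 CPM after day 2, MSTRG.31295 declines in steps to days 16 to 18, MSTRG.33253 splits between 0 and 119 CPM on days 6 to 8, and MSTRG.5002 is highest in the adult library, at 3049 CPM.

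Several further members were singled out after their values were seen. MSTRG.30739 was the most abundant, with 3959 and 1327 CPM on day 2 and 1537 and 681 CPM on day 1. The lower day 2 library lay below the higher day 1 library, so both days overlapped. On days 3 to 4 its libraries split: replicates 1, 3, 4 and 5 held 391, 73.2, 396 and 675 CPM, whereas replicates 2 and 6 held 1.95 and 0.926 CPM. Days 6 to 8 ranged from 10.9 to 605 CPM around a median of 186, days 10 to 14 from 0.516 to 38.0 CPM, and no library of days 16 to 18 exceeded 0.886 CPM. Days 21 to 24 gave 6.83 and 3.64 CPM. The adult library held 1551 CPM.

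MSTRG.5002 had 744 and 96.0 CPM on day 2, 110 and 13.4 CPM on day 1, and no more than 10.6 CPM in any of the 21 later libraries. Replicate 1 was the higher library on both days. Its value in the adult library was 3049 CPM, 7.26 times the day 2 mean. The ID with the next number, MSTRG.5003, was also a member, the only pair of consecutive numbers in the list. It had 23.2 and 1.89 CPM on day 2, 0.460 and 0.102 CPM on day 1, and at most 1 count in any later library. The adult library held 7.55 CPM of it. Day 1 stood at 2.24% of the day 2 mean in MSTRG.5003 and at 14.7% in MSTRG.5002. The adult library was below the day 2 mean in MSTRG.5003 (0.601 times) and above it in MSTRG.5002. Whether both are parts of one gene was not tested.

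The libraries of day 2 did not contribute equally. Replicate 1 was higher than replicate 2 in 28 of 34 members, and more than 2 times higher in 19 (55.9%), against 3.39% of the background IDs. The reverse, replicate 2 at more than 2 times replicate 1, occurred in 0 members and in 6.11% of background IDs. The median ratio of replicate 1 to replicate 2 was 2.45 among members and 1.06 in the background. Both libraries entered the rule with equal weight, and an ID high in only 1 of them could meet it. Background IDs had to pass the day 2 minimum only. Nothing is therefore read from these differences, and their reason was not tested. Replicate 1 exceeded 2 times every other window mean in all 34 members, replicate 2 in 18. In 21 members (61.8%, against 1.49% of background IDs) both day 2 libraries lay above each of the 23 other regenerating libraries. The rule used these libraries, and nothing is read from this share.

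**Figure D3:**
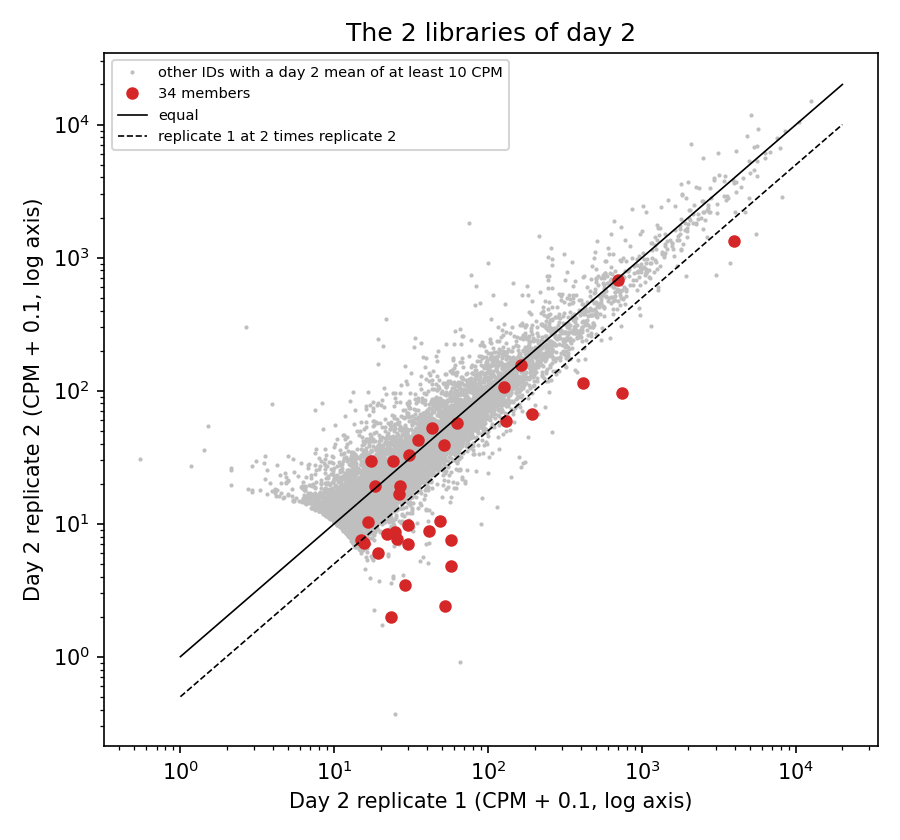
CPM + 0.1 in replicate 1 (x) and replicate 2 (y) of day 2, both on log axes, for the 34 members (red) and the other IDs with a day 2 mean of at least 10 CPM (grey); lines mark equality and a 2-fold excess of replicate 1. Of the members, 19 lie below the dashed line and 28 below equality.

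Replicate 1 was also the higher library on day 1 in 26 of 34 members, against 53.3% of background IDs, and the higher on both days in 22 (64.7%, against 45.4%). Across the 34 members, Spearman's rho between the log2(CPM + 1) differences of replicates 1 and 2 on the 2 days was 0.608, and across the 8734 background IDs it was 0.783. Both are descriptions over IDs that share the same 4 libraries. Replicates 1 of both days and the adult library carry the label of sample set I. A library of every other window carries it too, so the label does not set these libraries apart.

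To read day 2 in a library that did not choose the IDs, the rule was applied with each day 2 library held out. Without replicate 1, 29 IDs met the rule, 12 of them among the 34 members. In the held-out replicate 1, 12 of these 29 (41.4%) exceeded 2 times every other window mean, compared with 0.697% of the 8604 IDs that reached 10 CPM in replicate 2. A further look at the same library showed 25 of the 29 (86.2%) above every other window mean, compared with 23.6%. Without replicate 2, 98 IDs met the rule, including all 34 members. In the held-out replicate 2, 19 of the 98 (19.4%) exceeded 2 times every other window mean, compared with 0.343%, and 60 (61.2%) lay above every other window mean, compared with 14.0%. The means of the other windows are shared between choice and reading, and were low by choice, so only the day 2 value is independent. Background IDs were not chosen for low windows. The gap between these shares and the background is therefore partly set by the choice, and nothing is read from its size. With replicate 1 of day 1 left out instead, 58 IDs met the rule.

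The window comparisons were run in edgeR's quasi-likelihood test with 1 model over the 25 regenerating libraries, with Benjamini-Hochberg adjustment over the 23995 IDs that passed the filter. The rule itself set day 2 above day 1 and above days 3 to 4 in the same libraries, so all 34 members had that direction by choice, and the counts of these contrasts are given with nothing read from them. The median fitted log2 fold change of the members was 2.28 from day 1 to day 2 and -3.22 from day 2 to days 3 to 4. Members past the threshold numbered 2 for day 2 against day 1, where 0.0292% of all tested IDs were (0.00834% higher and 0.0208% lower on day 2). These were MSTRG.5101 and MSTRG.20708, and 0 members passed without replicate 1 of day 1, replicate 2 of day 1 or replicate 1 of day 2. MSTRG.20708 held 30.0 and 9.70 CPM on day 2 after 0.843 and 0.305 CPM on day 1, and between 1.06 and 6.80 CPM in all later regenerating libraries.

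For days 3 to 4 against day 2 they numbered 18, where 2.89% of all tested IDs were past the threshold (1.58% lower and 1.32% higher). Without replicate 1 of day 2 the number was 2, with 16 IDs in all instead of 694. Of the libraries of days 3 to 4, leaving out replicate 5 gave 1168 IDs in all and leaving out replicate 6 gave 409.

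Levels before and after the peak were compared between days 3 to 4 and day 1, a direction that the rule does not set. Of 34 members 3 were called (8.82%), all lower on days 3 to 4, next to 10.6% of all tested IDs called in either direction, so the members were called about as often as IDs at large. Of all IDs 7.08% were called lower and 3.53% higher. The median fitted log2 fold change was -0.39 among members and 0.05 among all IDs. Over all IDs, 847 were higher and 1698 lower, but under upper-quartile scaling, which moved the median of all IDs from 0.05 to 0.22, 1369 were higher and 1114 lower. The 3 members were lower under both scalings. Without replicate 1 of day 1 the IDs called in all were 393. With only the compared libraries, 32 members passed the filter and 2 were called, next to 679 of 21368 IDs.

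Of the 3 members called lower than on day 1, MSTRG.6532 and MSTRG.30788 held few reads on days 3 to 4. MSTRG.5002 held from 10 to 83 counts in the libraries of that window. MSTRG.6532 had 7.21 and 1.83 CPM on day 1 and at most 0.927 CPM on days 3 to 4 (edgeR adjusted p 0.000972). MSTRG.30788 had 2.45 and 0 CPM on day 1 and at most 2 counts in each library of days 3 to 4 (edgeR adjusted p 0.0048). MSTRG.5002, given above, was also called (log2 fold change -3.76, edgeR adjusted p 0.0244). Library values of MSTRG.30788 overlapped between the windows, those of the others did not. None of the 3 passed without replicate 1 of day 1, at edgeR adjusted p of 0.319, 0.743 and 0.718 in that order. MSTRG.5002 also missed the threshold without replicate 6 of days 3 to 4 (adjusted p 0.0511), in DESeq2 (0.0543) and in a fit of the compared windows alone (0.0599). Without replicate 5 of days 3 to 4, 5 members were called.

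From days 3 to 4 to days 6 to 8, 4 members were called (11.8%), all lower at the later window, next to 8.21% of all tested IDs, 5.68% lower and 2.53% higher. MSTRG.10703, given above, was called at an edgeR adjusted p of 0.0163 (log2 fold change -3.56). MSTRG.22605 fell from 21.7 ± 10.8 CPM to 8.19 ± 3.12 CPM (SD, n = 6 each; log2 fold change -1.54, edgeR adjusted p 0.0181). MSTRG.2634 fell from 37.9 ± 19.0 to 14.0 ± 6.42 CPM (SD, n = 6 each; log2 fold change -1.55, edgeR adjusted p 0.0253). MSTRG.31295 fell from 291 ± 143 to 99.1 ± 86.0 CPM (SD, n = 6 each; log2 fold change -1.65, edgeR adjusted p 0.0308).

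Library ranges of the 4 members overlapped between these windows. The model over all windows held 34 members, each of which could pass the filter by its day 2 level. With only the compared libraries, 24 members passed the filter and 2 were called, next to 1197 of 18840 IDs. The shares of members and of all IDs in the model over all windows are therefore not like for like. The calls of MSTRG.10703 and MSTRG.22605 passed in each of 12 fits that left out 1 library, but MSTRG.10703 missed the threshold in a fit of the compared windows alone (edgeR adjusted p 0.0521), as did MSTRG.31295 (0.065). That of MSTRG.2634 was lost without replicates 2 or 5 of days 3 to 4 and without replicates 1, 3, 4 or 5 of days 6 to 8 (edgeR adjusted p 0.0529 to 0.0692). That of MSTRG.31295 was lost without replicates 1 or 5 of days 3 to 4 and without replicates 1, 3, 4, 5 or 6 of days 6 to 8 (0.0520 to 0.0846). The number of members called was 2 without replicate 5 of days 3 to 4 and without replicates 1, 3 or 4 of days 6 to 8, and 7 without replicate 2 of days 6 to 8. The number of IDs called in all, 1970, became 1276 without replicate 1 of days 6 to 8 and 1103 without replicate 3.

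Whether members came back late was asked by comparing the mean of days 16 to 18 and days 21 to 24 with days 6 to 8. Of 34 members 5 were called (14.7%), next to 7.36% of all tested IDs. Members were 4 lower and 1 higher late, and all IDs were 4.52% lower and 2.83% higher. The member that rose was MSTRG.2634, with 36.8, 39.9 and 36.8 CPM on days 16 to 18 and 55.0 and 38.2 CPM on days 21 to 24, after a range of 6.71 to 22.3 CPM on days 6 to 8 (fitted log2 fold change 1.60, edgeR adjusted p 0.0304). Its late libraries lay above all libraries of days 6 to 8 and near its day 1 values of 42.5 and 41.3 CPM. Its day 2 values were 126 and 106 CPM. In this comparison too, members could pass the filter by their day 2 level. With only the compared libraries, 27 members passed it and 4 were called (3 lower and 1 higher), next to 2363 of 22011 IDs. The shares of members and of all IDs given first are therefore not like for like.

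The 4 members that fell further late included both of the most abundant ones. MSTRG.30739 went from 249 ± 256 CPM (SD, n = 6) on days 6 to 8 to 0.567 ± 0.277 CPM (SD, n = 3) on days 16 to 18 and 5.23 ± 2.26 CPM (SD, n = 2) on days 21 to 24 (edgeR adjusted p 0.0225), with no overlap between the late libraries and those of days 6 to 8. MSTRG.31295 was also lower (log2 fold change -1.69, edgeR adjusted p 0.0469), although its libraries of days 21 to 24 lay within the range of days 6 to 8. MSTRG.2243, with 30.4 and 32.9 CPM on day 2, ranged from 0 to 3.48 CPM on days 6 to 8 and held 3 counts in replicate 1 of days 21 to 24 and none in the other late libraries (edgeR adjusted p 0.0117). MSTRG.6532 ranged from 0.265 to 2.37 CPM on days 6 to 8 and from 0 to 0.550 CPM late (edgeR adjusted p 0.0133).

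Without replicate 1 of days 21 to 24, and likewise without replicate 2, 1 member was called in the late comparison, and without replicate 1 of days 16 to 18, 3 were. DESeq2 called 11. The IDs called in all went from 1765 to 470, 364 and 1104 in these fits. MSTRG.30739 did not pass without replicate 1 or replicate 2 of days 21 to 24 (edgeR adjusted p 0.138 and 0.169), MSTRG.2243 without replicate 2 (0.0804) and MSTRG.6532 without replicate 1 (0.0865). MSTRG.2634 was lost in 7 of 11 fits that left out 1 library, replicates 1, 4 or 5 of days 6 to 8, 1 or 2 of days 16 to 18 and 1 or 2 of days 21 to 24 (edgeR adjusted p up to 0.126). MSTRG.31295 was lost in 9 of 11, the exceptions being replicates 1 and 3 of days 6 to 8 (edgeR adjusted p 0.0517 to 0.230), and also with no filter (0.0653) and in a fit of the compared windows alone (0.0898).

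The adult library, which the rule did not use, divided the members. Of 34 members 17 (50%) were at least 2-fold lower in it than the day 2 mean, against 29.4% of the 8734 background IDs, and 10 (29.4%) were at or above the day 2 mean, against 31.0%. Between both lay 7 members (20.6%), against 39.6%. With 1 adult library no test was made. At the low end, 8 members (23.5%) stood at no more than 10% of their day 2 mean, against 1.52%. The high end held 4 members (11.8%) at 2 or more times the day 2 mean, against 6.94%. The adult level exceeded 2 times every window mean outside day 2 in 15 members (44.1%, against 2.14%). It lay above each of the 23 libraries outside day 2 in 14 (41.2%, against 7.45%), and above all 25 in 7 (20.6%, against 7.13%). The rule used the day 2 mean and held the other windows low in members, and the part of that choice in these shares was not tested.

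**Figure D4:**
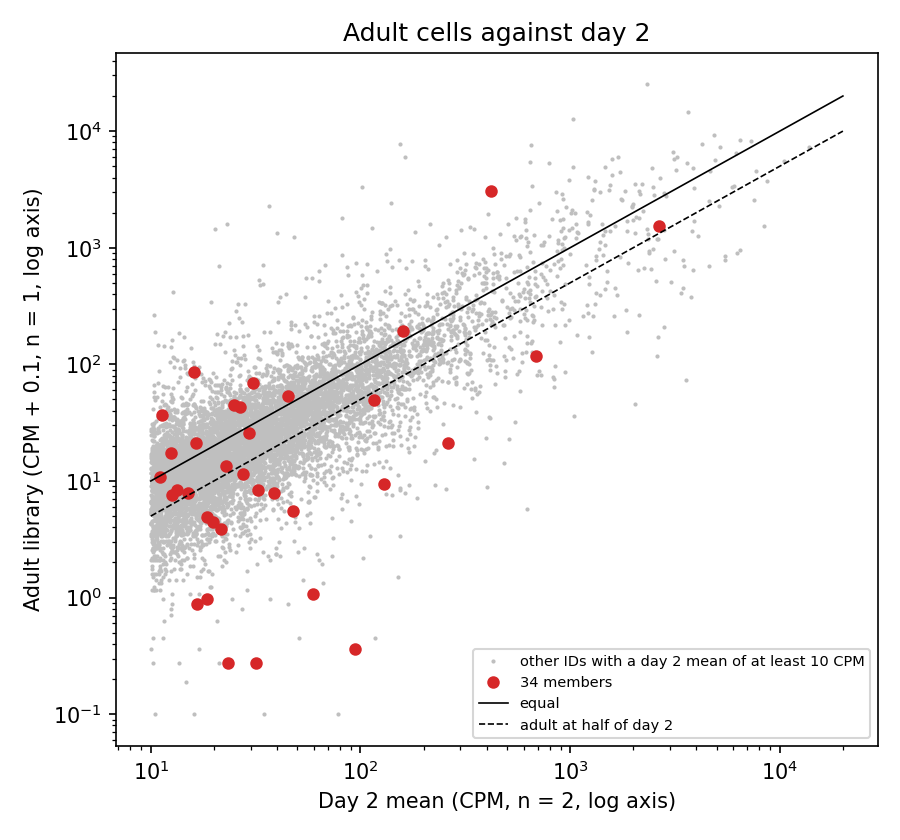
Adult library (y, CPM + 0.1, n = 1) against the day 2 mean (x, CPM, n = 2), both on log axes, for the 34 members (red) and the other IDs with a day 2 mean of at least 10 CPM (grey); lines mark equality and an adult level of 50% of day 2. Members scatter from 3 IDs with 2 or 3 adult counts to MSTRG.5002 at 3049 CPM, and 17 lie on or below the dashed line.

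Members nearly silent in adult cells included MSTRG.16492, with 130 and 58.7 CPM on day 2 and 3 adult counts, or 0.263 CPM (exact Poisson 95% interval 0.0543 to 0.769). MSTRG.2243 had 2 adult counts, or 0.175 CPM (0.0212 to 0.634). MSTRG.22605 held 62.3 and 56.6 CPM on day 2 and 0.965 CPM (0.482 to 1.73) in the adult. Among the 17 members at least 2-fold lower in the adult library, 13 had both day 2 libraries above the other 23, 8 had replicate 1 at more than 2 times replicate 2, and the median ratio was 1.58. They included the largest imbalance of all members, MSTRG.6549 with 52.6 and 2.29 CPM on day 2 and 11.4 CPM in the adult library.

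After MSTRG.5002, the largest adult levels relative to day 2 were those of MSTRG.25517, with 86.2 CPM in the adult and 28.7 and 3.37 CPM on day 2, MSTRG.6532, with 36.5 CPM against 15.6 and 7.00, and MSTRG.17210, with 69.0 CPM against 56.9 and 4.71. Among the 10 members at or above day 2 in the adult library, 7 had replicate 1 at more than 2 times replicate 2, the median ratio was 3.30, and 4 had both day 2 libraries above the other 23. The other 3, MSTRG.7567, MSTRG.33253 and MSTRG.23597, had closer day 2 libraries, as in MSTRG.23597 with 43.3 CPM in the adult and 23.8 and 29.4 CPM on day 2. Replicate 1 was the higher library on day 1 in 9 of the 10. Across the 34 members Spearman's rho between the replicate ratio on day 2 and the ratio of adult to day 2 was 0.433, and across the background IDs it was -0.0511. These points share the same 3 libraries and a common day 2 term, and the values are descriptions.

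Summed over the 34 members, the level was 7265 and 3051 CPM on day 2, or 0.727% and 0.305% of all counts. The sums were 2283 and 1320 CPM on day 1, from 304 to 1533 CPM on days 3 to 4, and from 180 to 1014 CPM on days 6 to 8. Days 10 to 14 gave 104 to 416 CPM, and days 16 to 18 gave 115, 113 and 112 CPM, the lowest window mean. Days 21 to 24 stood at 247 and 240 CPM and the adult library at 5485 CPM. Of this adult sum, MSTRG.5002 alone held 3049 CPM and MSTRG.30739 held 1551 CPM. The adult sum therefore rests mostly on these 2 IDs and does not describe the other members. MSTRG.30739 made up 54.5% and 43.5% of the day 2 sums. Without it the day 2 sums were 3307 and 1724 CPM, and those of days 21 to 24 (240 and 236 CPM) still lay above those of days 16 to 18 (112 to 114 CPM). Between those windows, which hold 2 and 3 libraries, no test of the sum was made, since the members were chosen with these values known.

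**Figure D5:**
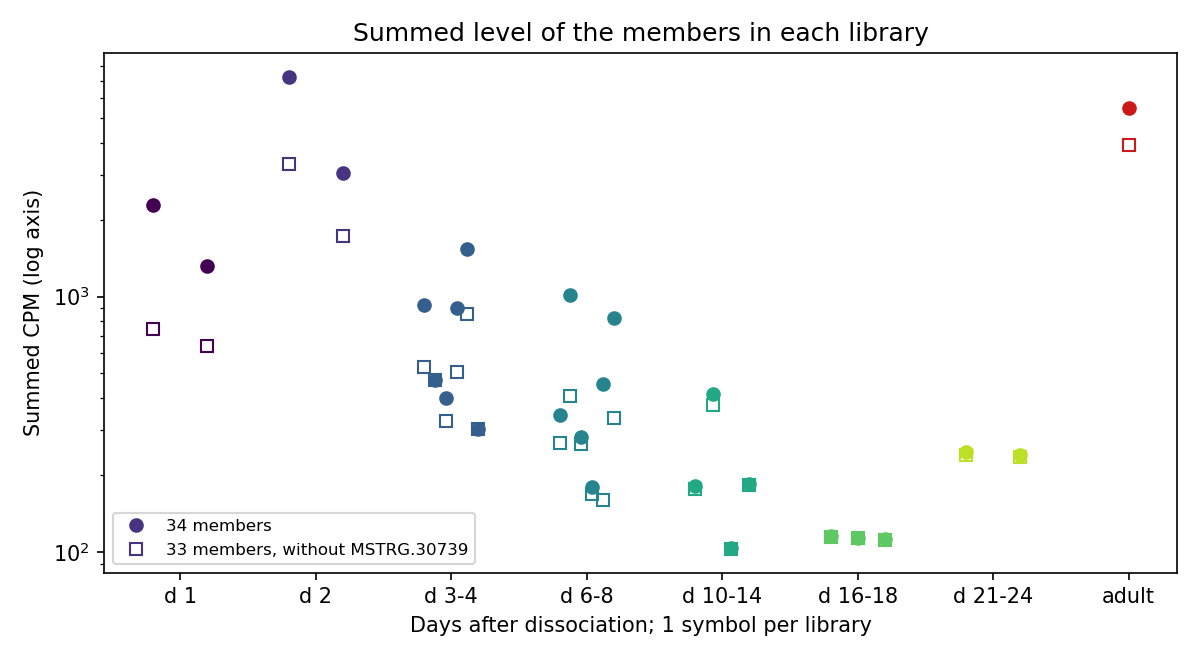
Summed CPM of the members (y, log axis) in each library by window (x), for all 34 members (filled circles) and without MSTRG.30739 (open squares). Day 2 and the adult library stand highest, days 16 to 18 lie together at 112 to 115 CPM, and libraries of days 3 to 4 spread from 304 to 1533 CPM. In the adult library, MSTRG.5002 alone accounts for 3049 CPM of either symbol.

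Libraries of one window differed in how much of the day 2 signal they retained. On days 3 to 4 replicate 5 had the largest sum, 1533 CPM, with 6 members above 50% of their day 2 mean, and replicate 6 the smallest, 304 CPM. Replicate 4 was the highest library of this window for 11 members (32.4%, against 13.8% of background IDs) and replicate 5 for 10 (29.4%, against 17.4%), whereas replicate 1 was so for 0 members, against 24.2%. On days 6 to 8 replicate 2 was the highest for 11 members (32.4%, against 1748 of 8734 background IDs), replicate 6 for 7 (20.6%, against 8.59%) and replicate 3 for 5 (14.7%, against 26.7%). The labels pool days 3 and 4 in one window and name no sequencing batch, and the part of the exact day in this spread was not tested.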

How the data were processed

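RNA was extracted with Trizol and libraries were made with the Lexogen SENSE mRNA-Seq kit, per the labels' protocols. The authors deposited raw read counts per gene ID, 1 table for each of 26 libraries. Trimmomatic 0.36, HISAT2, StringTie, featureCounts, DESeq2 and Bowtie2 are named in the submitters' processing notes, without role or order. Genome build, gene models and strand are not given in the sources used here, so overlapping IDs, split genes and near-identical copies could not be separated.

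Groups and replicate numbers came from the titles. CPM used column totals. Tests used edgeR 4.0.16 in R 4.3.3 (limma 3.58.1). IDs were filtered with filterByExpr and scaled by TMM, and glmQLFit (robust = TRUE) had window as its factor. Tests were two-sided at a Benjamini-Hochberg threshold of 0.05, and the common dispersion was 0.173. Tables used Python 3.11.15, NumPy 2.4.6 and pandas 2.3.3. On simulated counts with 200 changed IDs of 2 log2 units, the procedure recovered 47% in the contrast of days 1 and 2. With days 3 to 4 it recovered 62% (versus day 2), 60% (versus day 1) and 84.5% (versus days 6 to 8). The late contrast gave 81%. Simulated libraries were drawn independently around flat levels, with no deviation shared between libraries. Recovery in the real libraries can therefore differ from these values.

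The members were chosen with earlier results of these data known. The members named were the 2 of largest day 2 mean over (largest other mean + 1 CPM) and the 2 of highest day 2 mean, where both day 2 libraries lay above the other 23. Others are named because they passed a test or were singled out after their values were seen. Alternatives comprised leave-one-out fits, other scalings, filters and thresholds, DESeq2 1.42.0, replicate blocks, and models limited to the windows in question.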

Additional observations from a re-analysis of the deposited data

Results flagged for a closer look

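Dixon's test for an extreme value was applied to the windows with 4 to 6 libraries, for the members' summed level and 12 named members. It picked out 7 of 39 value sets, in each case a high library. For normal values chance gives about 1 in 20, CPM need not follow that rate, and members share libraries, so the number is no measure of an excess.

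MSTRG.33253 held 101 CPM in replicate 4 of days 3 to 4, against 0 to 5.65 CPM in the others, and without it the mean of that window was 1.70 instead of 18.2 CPM. It held 112 CPM in replicate 3 of days 10 to 14, against 0.436 to 7.92 CPM. The same library of days 10 to 14 held 38.0 CPM of MSTRG.30739, against 0.516 to 3.53 CPM. MSTRG.31295 held 267 CPM in replicate 2 of days 6 to 8, against 31.6 to 107 CPM, and the mean without it was 65.5 CPM. MSTRG.22605 held 17.0 CPM in replicate 5 of days 10 to 14, against 4.75 to 6.19 CPM. MSTRG.10703 held 1.94 CPM in replicate 3 of days 6 to 8, against 0 to 0.223 CPM. MSTRG.5101 held 3.36 CPM in replicate 2 of days 3 to 4, against 0.415 to 1.48 CPM. The reasons for these values were not tested.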

How the results depend on the processing

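The number of members, 34, was 121 at more than 1.5 times, 20 at more than 3 times, 63 at a day 2 minimum of 5 CPM and 22 at 20 CPM. It was 39 on TMM totals, 45 under upper-quartile scaling and 46 with medians. Leaving out 1 library gave 29 to 98. For the adult library the number at least 2-fold lower, 17, stayed within 15 to 22 in the other settings tried, except 13 at a fold of 4, and was 14 to 21 with 1 day 2 library left out.

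Members called moved as follows. Day 2 against day 1 (2 members, 7 IDs) gave 0 members at a mean of at least 5 CPM (17 members tested) and 0 members and 2 IDs with only the libraries compared. DESeq2 gave 6 and 86, upper-quartile scaling 3 IDs, and leaving out 1 library 0 to 2 of each. Days 3 to 4 against day 2 (18 and 694) gave 6 members at 5 CPM, 9 and 42 with only the libraries compared, 1495 IDs in DESeq2, and 2 to 21 and 16 to 1168 with 1 library left out. Days 3 to 4 against day 1 (3 and 2545) gave 1 member at 5 CPM, 679 IDs with only the libraries compared, and 0 to 5 and 393 to 3663. Days 6 to 8 against days 3 to 4 (4 and 1970) gave 2 and 1197 with only the libraries compared, and 2 to 7 and 1103 to 2458. Days 16 to 24 against days 6 to 8 (5 and 1765) gave 11 and 2969 in DESeq2, and 1 to 7 and 364 to 1835.

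Under a replicate block, members called were 0, 10, 1, 2 and 1 in the order above by the title number, with 0, 206, 1404, 1500 and 1152 IDs. By the sample set label they were 0, 11, 1, 3 and 1, with 3, 259, 1726, 1668 and 1344 IDs. Same-numbered libraries of days 1 and 2 deviated together from their window means (r = 0.535 over IDs). With 2 libraries in each window, both pairs give this value by construction, so it counts once. Same-numbered libraries of day 2 and days 3 to 4 did not deviate together (-0.015 and -0.0278). Those of days 6 to 8 and days 3 to 4 ran from -0.203 to 0.228 over 6 pairs. Those of the late windows and days 6 to 8 ran from -0.132 to 0.086. Where there were 3 or more pairs, not every pair exceeded 0.1, and the main model used no pairing. That criterion does not cover days 1 and 2, so whether their libraries are paired was not settled. Under either block the day 2 against day 1 calls of MSTRG.5101 and MSTRG.20708 were lost. Further calls lost by the title number were those of MSTRG.5002 and MSTRG.30788 (against day 1). MSTRG.22605 (edgeR adjusted p 0.0682) and MSTRG.31295 (days 6 to 8) were also lost, and so were all 5 late calls. By the set label those of MSTRG.5002, MSTRG.30788, MSTRG.22605 (0.0639) and all late ones but MSTRG.6532 were lost. Without replicate 1 of day 1, MSTRG.30788 changed sign between days 3 to 4 and day 1 (log2 fold change 2.69, and -5.32 without replicate 2). Causes of these shifts were not tested beyond fewer libraries or IDs in the fit. Members with fewer than 10 counts in a window are limited by depth.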
